A study of Rattus norvegicus with 20 samples.

Results

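The pyruvate dehydrogenase complex, the kinases that switch it off and the muscle uncoupling proteins were followed in rear-leg skeletal muscle of rats. The genes were Pdha1, Pdhb and Dlat (subunits of the complex), Pdk1, Pdk2 and Pdk4 (kinases), and Ucp2 and Ucp3 (uncoupling proteins). Every probe set whose only gene symbol is one of these 8 was taken, whatever its value, which gave 15 probe sets, of 7006 probe sets for 4736 genes that carry a single symbol and are no control. The 4 groups, with 5 one-colour Affymetrix arrays each, were diabetic rats given vanadyl sulfate, untreated diabetic rats, normal rats given vanadyl sulfate and untreated normal rats. Vanadyl sulfate is a vanadium salt known for insulin-like actions. Poly(A) RNA was prepared from the muscle before labelling. The sources used here do not give the leg muscle taken, the rats' strain, age or sex, the means by which they became diabetic, or how much vanadyl sulfate they received and for how long. They also do not say whether the 5 replicates of a group came from separate animals, so the p-values measure the spread between these samples, which may be technical.

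The pyruvate dehydrogenase complex turns pyruvate from glycolysis into acetyl-CoA inside mitochondria, and so sets how much carbohydrate a muscle burns. Its decarboxylase is built from alpha (Pdha1) and beta (Pdhb) chains, and Dlat is the acetyltransferase core that passes the acetyl group to coenzyme A. The kinases phosphorylate the alpha chain and stop the enzyme. Pdk4 is the kinase best known to be induced by fasting, fatty acids and lack of insulin. Ucp3 is an inner-membrane carrier made mainly in skeletal muscle and brown fat, where its mRNA tends to follow fatty acid supply. Ucp2 is a relative found in many tissues, immune cells among them.

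The deposited values are signal intensities on a linear scale, called signal below, and each changes with the probe set as well as the mRNA, so no probe set's level is compared with another's. Differences are log2(signal + 16) in the first-named group minus the second, with the standard error (SE) and the Benjamini-Hochberg adjusted p from limma, called at an adjusted p under 0.05 over all 6027 probe sets tested. All 15 member probe sets passed the filter on dim probe sets, which asks for a signal above the array's 40th percentile in at least 5 arrays: Pdk4 met this in 15 of 20 arrays, each Ucp3 probe set in 19 and the others in all 20. Of 13 skeletal muscle marker genes, 11 were on the arrays, and all 11 lay above the 40th percentile in all 20. Median signals of the 20 arrays ran from 377 to 648. The Gapdh control's 3' signal over its 5' signal, as a log2 ratio, which rises where RNA is degraded or copied incompletely, was 3.94 in treated diabetic replicate 1 and 2.90 and 2.91 in normal replicates 1 and 3, against -0.00376 to 1.31 in the other 17 arrays. These 3 arrays stand apart, and the members' values that they move most are given with and without them. The RNA comes from whole tissue, so fewer cells of a type and less RNA per cell cannot be told apart.

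Subunit signals lay lower in diabetic than in normal muscle on all 7 subunit probe sets, with a median difference of -1.18, against -0.06 over all probe sets tested. Of the 7, 1 for Dlat was called, and it was the only call among the 15 member probe sets; 1.83% of all tested probe sets were called in this comparison with 0.564% called lower and 1.26% higher. At an unadjusted p under 0.05, 5 of the 7 passed, against 16.7% of all probe sets tested. The groups overlapped on each of the 15 member probe sets, while 1.76% of all tested probe sets lay wholly lower in diabetic muscle and 3.33% wholly higher.

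Dlat, the acetyltransferase, had 3 probe sets. On D00092_s_at its signal was 1173, 2349.7, 1004, 2799 and 1879 in the diabetic arrays (replicates 1 to 5), against 5877, 8739, 1933, 7044 and 7488 in the normal arrays. Each diabetic array lay below 4 of the 5 normal ones, and normal replicate 3, an array of high Gapdh ratio, lay inside the diabetic range. The signal fell 3.22-fold in diabetic muscle (-1.69 ± 0.38, adjusted p = 0.0276). Dropping diabetic replicate 1 or 3, or normal replicate 2, 4 or 5, ended the call (adjusted p = 0.1002, 0.108, 0.0701, 0.0750 and 0.0791), as did a fit of only the diabetic and normal arrays (adjusted p = 0.0903). On D10655_at the signal was 6457, 15150.5, 6792, 12939 and 13225 in diabetic muscle, against 26640.5, 24962, 14846, 26078 and 26294 in normal muscle, where replicate 3 was again the lowest. The difference was -1.18 ± 0.31 (adjusted p = 0.0517), just outside the threshold. On D10655_g_at the values were 3158, 4973, 2843, 6714 and 7195 in diabetic muscle, against 16955, 19698, 5297, 15328 and 13308 in normal muscle, a difference of -1.47 ± 0.38 (adjusted p = 0.0502). The 3 probe sets ordered the 20 arrays alike, with Pearson's r of 0.83 to 0.90 and Spearman's rho of 0.78 to 0.90 between pairs (largest adjusted permutation p = 0.00018, over the 9 relations computed), and r of 0.73 to 0.85 without the 2 arrays farthest from the median.

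Pdhb, the beta chain, had 2 probe sets. On rc_AA892828_at its signal was 5986, 4836, 4866, 9246 and 7366 in diabetic muscle, against 14652, 14027, 7853, 14294 and 10984 in normal muscle. Only diabetic replicate 4 lay above the lowest normal value, which again was replicate 3. The difference was -0.94 ± 0.25 (adjusted p = 0.0518), a 1.92-fold lower signal that missed the threshold. On rc_AA892828_g_at the values were 1314, 1173, 783, 3055 and 2151 in diabetic muscle, against 6343, 6336, 902, 3746 and 3121 in normal muscle, a difference of -1.14 ± 0.48 (adjusted p = 0.222). The 2 Pdhb probe sets moved together over the 20 arrays (r = 0.84, rho = 0.85, adjusted permutation p = 1.8e-05 and 4.5e-05, r = 0.77 without the 2 farthest arrays).

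Pdha1, the alpha chain that the kinases phosphorylate, had no called difference. On rc_AA799598_at its signal ranged from 17842 to 26595 in diabetic muscle (median 25872), against 22145 to 37049 in normal muscle (median 31883), a difference of -0.42 ± 0.23 (adjusted p = 0.366). On Z12158cds_at the values were 1495, 4168, 1128, 5504 and 2247 in diabetic muscle, against 2176, 22287, 966, 12312 and 11137 in normal muscle. The normal arrays spread widely here, with replicate 1 inside and replicate 3 below the diabetic range and the other three above it, and the difference was -1.24 ± 0.71 (adjusted p = 0.384). The 2 probe sets of Pdha1 followed each other less closely than those of Dlat or Pdhb (r = 0.59, rho = 0.58, adjusted permutation p = 0.0071 and 0.0095, and r = 0.49 without the 2 farthest arrays).

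**Figure D1:**
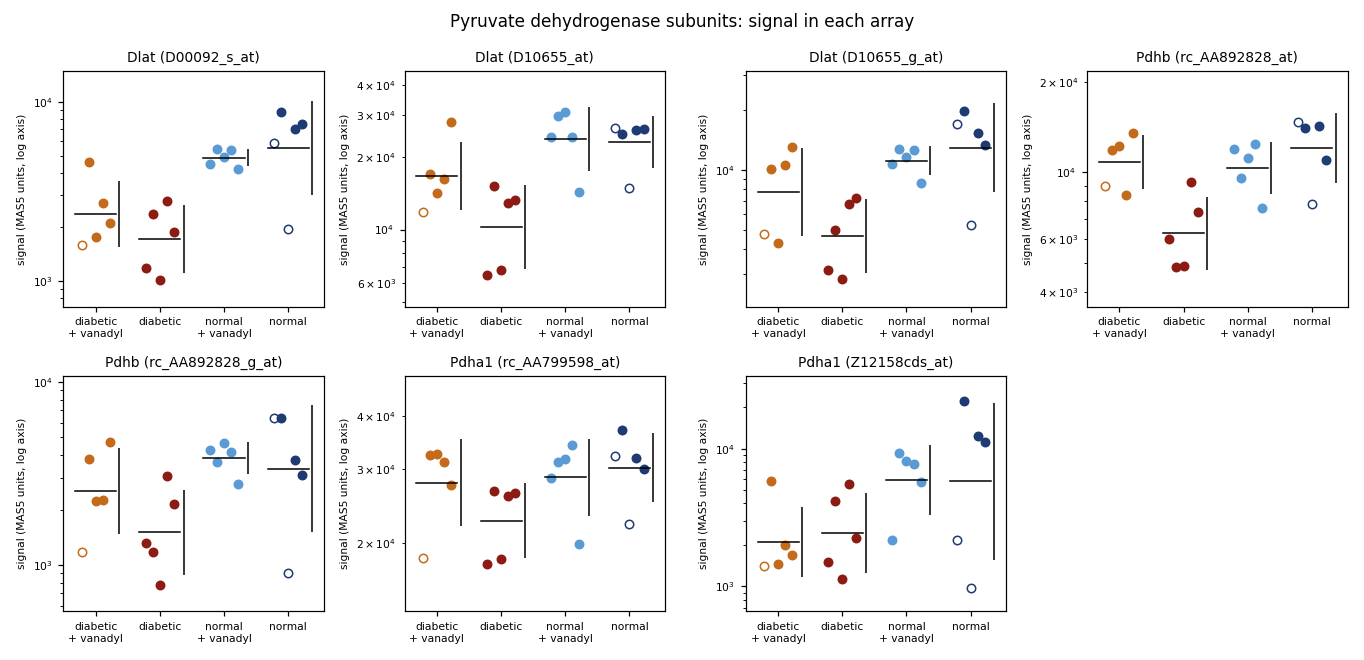
Signal of the 7 probe sets of Dlat, Pdhb and Pdha1 in each of the 20 arrays, on a log axis, with the groups from left to right as diabetic treated with vanadyl sulfate, diabetic, normal treated and normal. Points are arrays in replicate order, open points are the 3 arrays with a log2 Gapdh 3'/5' ratio above 2, horizontal bars are means and vertical lines are 1 SD either side, both taken on the log2 scale (n = 5). The diabetic arrays sit low on each Dlat and Pdhb probe set, and normal replicate 3 is the lowest normal array in all 7 panels.

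With the 3 arrays of high Gapdh ratio dropped, all 7 subunit differences were larger. In that fit 6 subunit probe sets were called lower in diabetic muscle: the 3 of Dlat (-2.17, -1.33 and -1.77, adjusted p = 0.00277, 0.0285 and 0.0113), both of Pdhb (-1.05 and -1.46, adjusted p = 0.0278 and 0.0356) and Z12158cds_at of Pdha1 (-2.56, adjusted p = 0.0162). In the same fit 464 probe sets were called in all, against 110 with every array. The log2 3' to 5' ratio of beta-actin then ran from 0.93 to 2.52 in the 5 diabetic arrays, against 0.58 to 0.63 in the 3 normal arrays left, so a difference in RNA quality moved with the groups, and its part in the result was not tested beyond the covariate fits. With the Gapdh ratio as a covariate 5 members were called, of 282 probe sets called in all, and with both ratios 2, of 32.

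Cell markers also moved with diabetes. The summed signal of 14 immune cell markers was 26365 to 105758 in diabetic muscle, against 11474 to 19127 in normal muscle, with no overlap, and diabetic replicates 1 and 3 reached 105758 and 99979. The sum of 6 adipocyte markers was 32149 to 52729 in diabetic muscle, against 14987 to 26415 in normal muscle. No marker of either list was at 0 in every array, and 6 of the 14 and 5 of the 6 lay above the 40th percentile in all 20 arrays. Of the tested genes of these lists, 6 of 12 immune and 3 of 5 adipocyte markers rose in diabetic muscle and none fell. The 11 skeletal muscle markers all had negative differences and the 5 smooth muscle markers all positive ones, none called (medians -0.45 and 0.39). Of 7 slow fibre markers, listed apart from those 11, 6 had positive differences and none was called (median 0.32). The summed skeletal muscle signal was 745874 to 1111770.0 in diabetic muscle, against 800538 to 1177530.0 in 4 normal arrays and 3711600.0 in normal replicate 3. Diabetic replicates 1 and 3 also had the lowest signals of the group on all 3 Dlat probe sets and on both of Pdha1. Without these 2 arrays the Dlat D00092_s_at difference was -1.26 (adjusted p = 0.471) and no member was called, in a fit that called 3 probe sets in all. The part of these cells, muscle fibres included, in the subunit differences was not tested.

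The start regions of Dlat and Pdhb are printed because these are the subunit genes whose probe sets were all lower in diabetic muscle at an unadjusted p under 0.05. They are RefSeq sequences of the GRCr8 build, 5' to 3' on the gene's strand, from 250 bases before the transcript start to 50 after it, and capitals mark AGGTCA, the core element bound by nuclear receptors such as PPAR and ERR, searched on both strands. The Dlat region is chr8:59900769-59901068, minus strand, and the Pdhb region is chr15:19182539-19182838, plus strand.
Dlat: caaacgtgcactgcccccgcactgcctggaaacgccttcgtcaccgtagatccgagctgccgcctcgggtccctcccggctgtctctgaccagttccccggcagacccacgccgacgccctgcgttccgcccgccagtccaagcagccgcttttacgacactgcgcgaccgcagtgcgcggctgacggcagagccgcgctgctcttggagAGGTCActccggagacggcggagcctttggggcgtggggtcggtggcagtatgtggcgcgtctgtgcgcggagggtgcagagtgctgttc
Pdhb: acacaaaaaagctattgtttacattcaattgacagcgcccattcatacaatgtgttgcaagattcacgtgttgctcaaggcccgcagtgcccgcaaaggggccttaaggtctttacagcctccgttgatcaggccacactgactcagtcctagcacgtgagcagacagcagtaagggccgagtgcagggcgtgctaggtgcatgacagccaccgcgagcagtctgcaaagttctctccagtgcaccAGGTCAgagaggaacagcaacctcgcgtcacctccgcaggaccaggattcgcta
The Dlat match begins 40 bases before the start and the Pdhb match 4 bases before it. All 8 member genes had an entry in the table of 33469 promoters, and AGGTCA stood in 3 of the 8 (Dlat, Pdhb and Ucp3) and in 16.2% of all. The direct repeat of AGGTCA with 1 base between the copies stood in none of the 8 and in 0.0538% of all, and TATAAA in none of the 8 and in 14.2%. The FoxO motif TGTTTAC was in Pdhb alone (3.78% of all), 235 bases before the start, and the E-box CACGTG in Pdhb and Pdk2 (6.42% of all). These are letter matches in a window and no evidence of binding.

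Vanadyl sulfate treatment of diabetic rats went with higher mean subunit signals on 6 of 7 probe sets, and none was called. The median difference between treated and untreated diabetic muscle was 0.70 over the 7, against 0.08 over all probe sets tested. No member probe set of the 15 was called by limma, against 0.498% of all tested (0.0498% higher and 0.448% lower), and 4 had an unadjusted p under 0.05 (2 higher, 2 lower), against 16.3% of all. Cell markers differed in this comparison too. The 11 skeletal muscle markers had a median difference of 0.71, against 0.70 for the subunits, 10 of 11 being positive and none called. Of 12 tested immune markers 11 had negative differences and 3 fell (median -1.41), with sums of 11316 to 24026 in treated diabetic muscle, against 26365 to 105758 in untreated diabetic muscle, and no overlap. Of 5 adipocyte markers 4 had negative differences and 1 fell (median -0.82). In treated against untreated normal muscle 10 of the 11 skeletal muscle markers were negative (median -0.67), while the subunit median was -0.08. The part of these markers' cells in the subunit differences was not tested. Pdhb on rc_AA892828_at was 9009, 11814, 12238, 8383 and 13469 in treated diabetic arrays. All 5 values lay above 4 of the 5 untreated diabetic ones, and the difference was 0.79 ± 0.25 (adjusted p = 0.140). Dlat on D10655_at was 11809, 17030.5, 14185, 16176 and 28141 in treated diabetic muscle, against an untreated diabetic range of 6457 to 15150.5. In 3 of the 5 treated arrays the signal lay above that range, and the difference was 0.70 ± 0.31 (adjusted p = 0.263). The Dlat probe set that fell in diabetes, D00092_s_at, had 1588, 4578, 1751, 2714 and 2110.4 in treated diabetic muscle, a difference of 0.46 ± 0.38 from untreated diabetic muscle (adjusted p = 0.566). All 5 treated values lay below 4 of the 5 normal ones, with a difference of -1.23 ± 0.38 between treated diabetic and normal muscle (adjusted p = 0.270), the only member with an unadjusted p under 0.05 in that comparison. No member was called there, nor was any of the 6027 probe sets (0%, lower or higher), of which 12.8% had an unadjusted p under 0.05. With the 3 arrays of high Gapdh ratio dropped, 5 members were called lower in treated diabetic than in normal muscle, and 359 of the 6027 probe sets were called in all. The 5 were Dlat D00092_s_at (-1.56, adjusted p = 0.0300), Pdha1 Z12158cds_at (-2.64, adjusted p = 0.0300, against -1.46 and 0.393 with every array), the Pdk4 probe set and both of Ucp3. The log2 3' to 5' ratio of beta-actin then ran from 1.20 to 2.40 in the 4 treated diabetic arrays left, against 0.58 to 0.63 in the 3 normal ones. RNA quality thus moved with these groups too, and its part was not tested beyond the covariate fits. Treated diabetic and normal arrays overlapped on all 15 member probe sets, while 0.282% of all tested lay wholly lower in treated diabetic muscle and 0.398% wholly higher. The comparisons of diabetic with normal and of treated with untreated diabetic muscle share the untreated diabetic arrays, and those with normal muscle share the normal arrays, so their signs are not independent of each other.

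In normal rats no subunit probe set had a called difference with treatment. Dlat on D00092_s_at was 4468, 5471, 4888, 5344 and 4229.5 in treated normal muscle, a narrower range than in untreated normal muscle, with a difference of -0.19 (95% interval -0.99 to 0.61), and -0.67 when the arrays of high Gapdh ratio were dropped (adjusted p = 0.412). Pdha1 Z12158cds_at had 0.03, and -1.29 when they were dropped (adjusted p = 0.349). The 7 subunit differences ran from -0.22 to 0.19 with a median of -0.08, against 0.18 over all probe sets tested. That median over all probe sets was 0.03 after quantile normalization, a shift of -0.15. Whether the treatment difference itself depended on diabetes was tested as an interaction (the treated minus untreated difference of diabetic rats, less the same difference of normal rats). It was largest among subunits for Pdhb rc_AA892828_at (1.00 ± 0.35, adjusted p = 0.207), the only member with an unadjusted p under 0.05. The interaction median was 0.65 over the 7 subunit probe sets and 1.39 over the 11 skeletal muscle markers. No member was called in the interaction, against 0.166% of all tested, nor between treated and untreated normal muscle, against 0.0664%. In normal rats 1 of the 15 member probe sets, for Ucp3, had an unadjusted p under 0.05, against 9.23% of all tested. The treated and untreated groups overlapped on all 15, while 0.531% of all tested lay wholly lower in treated normal muscle and 1.31% wholly higher.

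Pdk4, the kinase induced by fasting and lack of insulin, had the widest range of any member. On AF034577_at its signal was 1157, 4744, 981, 4544 and 626 in diabetic muscle, against 52, 10249, 32, 3599.5 and 2392 in normal muscle. The normal group was split into replicates 1 and 3, which are dim and have the high Gapdh ratios, and replicates 2, 4 and 5, each above 3 or more of the 5 diabetic values. The difference was 1.16 ± 1.16 with a 95% interval of -1.26 to 3.58 (adjusted p = 0.640). With the 3 arrays of high Gapdh ratio dropped it was -1.36 (adjusted p = 0.291), so the sign turned and neither value passed. Leaving out single arrays gave 0.16 (without normal replicate 3) to 2.09 (without normal replicate 2).

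In treated diabetic muscle Pdk4 was 85, 495, 58, 407 and 65, each value below the lowest untreated diabetic value of 626. The values of replicates 1, 3 and 5 lay below the 40th percentile of their array, so their level is near the dim end of the scale and the size of the difference rests on dim values. The difference was -3.38 ± 1.16 (95% interval -5.81 to -0.96, adjusted p = 0.178), about 10.4-fold lower on the log2(signal + 16) scale, and it was not called. Of all tested probe sets, 2.07% lay wholly lower in treated than in untreated diabetic muscle and 2.37% wholly higher; of the 15 members 2 lay wholly lower, Pdk4 and 1 Ucp3 probe set, and 0 wholly higher. Replicate 1 has the Gapdh ratio of 3.94, and replicates 3 and 5 have ratios of 1.06 and 1.31. Normal replicates 1 and 3, where Pdk4 was also dim, have 2.90 and 2.91. Of the arrays where Pdk4 was not dim, only diabetic replicate 3 (1.11) has a ratio above 1.06. The part of RNA quality in the Pdk4 differences was not tested beyond the covariate fits and those leaving out arrays. Without the 3 arrays of high ratio the difference was -3.20 (adjusted p = 0.0526).

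Pdk4 in treated normal muscle was 322, 547, 586, 658 and 1226, a range that lay between the dim and the bright arrays of the untreated normal group. The difference from untreated normal muscle was -0.32 ± 1.16 (adjusted p = 0.949), and -2.84 when the arrays of high Gapdh ratio were dropped (adjusted p = 0.147). Treated diabetic muscle differed from normal muscle by -2.22 ± 1.16 (adjusted p = 0.424), and without those arrays by -4.56 (adjusted p = 0.0121). That last value sets 4 treated diabetic arrays against 3 normal ones, and 359 probe sets were called in that fit, against none with every array (770 at an unadjusted p under 0.05). The interaction was -3.06 ± 1.64 (adjusted p = 0.436), and -0.36 without those arrays (adjusted p = 0.928).

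Pdk1 and Pdk2, the other kinases on the arrays, had no called difference in any comparison. Pdk1, a broadly made isoform induced by low oxygen, had medians of 1015 in treated diabetic, 1131 in diabetic, 1016 in treated normal and 1288 in normal muscle. Its signal lay between 652 and 1439.5 in all 20 arrays, and the diabetic difference from normal muscle was -0.11 (95% interval -0.54 to 0.33). Pdk2, an isoform found in most tissues, had 12565 to 33159 on U10357_g_at in treated diabetic, 16640.4 to 31857 in diabetic, 17128 to 32638 in treated normal and 14623 to 29153 in normal muscle. Its diabetic difference from normal was 0.02 (95% interval -0.58 to 0.61) there and -0.02 (-1.25 to 1.20) on U10357_at. The 2 Pdk2 probe sets correlated over the arrays (r = 0.82, rho = 0.77, adjusted permutation p = 1.8e-05 and 0.00018, r = 0.72 without the 2 farthest arrays). The smallest p these permutations can give is 1e-05 before adjustment.

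**Figure D2:**
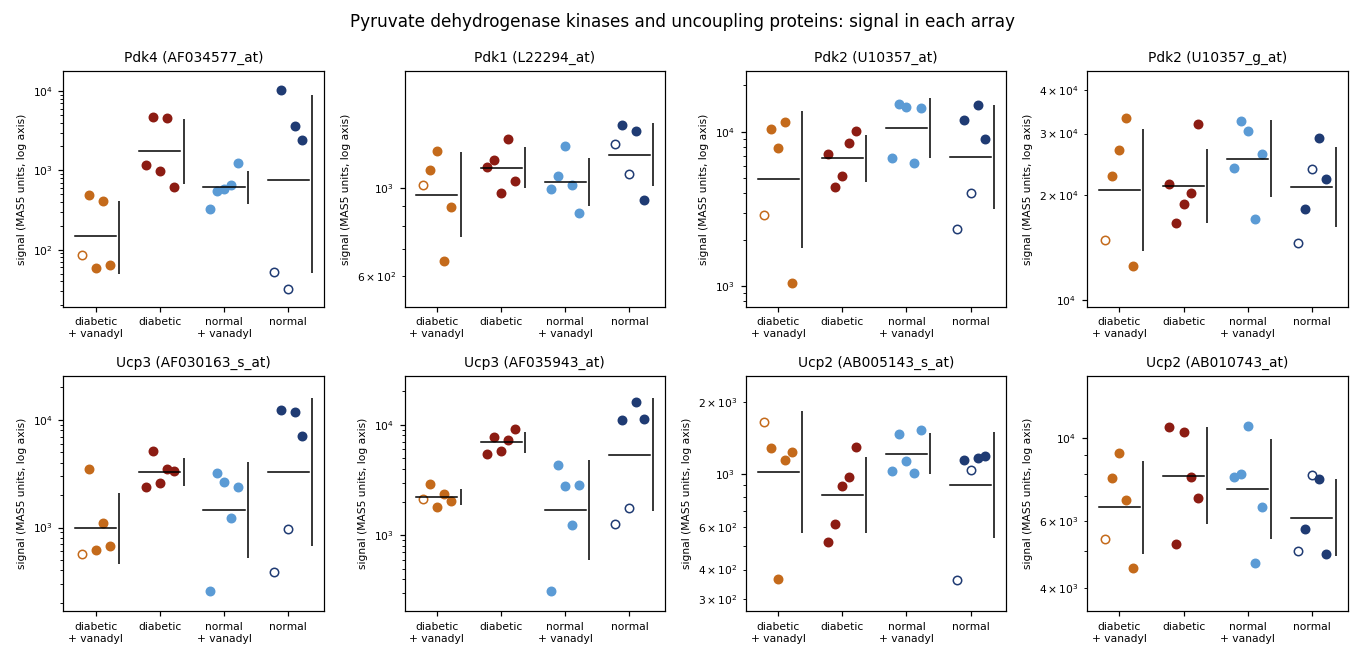
Signal of the 4 kinase and 4 uncoupling protein probe sets in each of the 20 arrays, on log axes, with the groups from left to right as diabetic treated with vanadyl sulfate, diabetic, normal treated and normal. Open points are the 3 arrays with a log2 Gapdh 3'/5' ratio above 2, horizontal bars are means and vertical lines 1 SD either side on the log2 scale (n = 5). All 5 treated diabetic arrays lie below the diabetic arrays for Pdk4 and for Ucp3 AF035943_at, and the normal arrays split widely for both genes.

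Ucp3, the muscle uncoupling protein, also lay lower in treated than in untreated diabetic muscle. On AF035943_at its signal was 2110.1, 2880.3, 1818, 2377 and 2055 in treated diabetic muscle, against 5392, 7782, 5772, 7334 and 9179 in untreated diabetic muscle. The groups did not overlap, and the difference was -1.64 ± 0.66, or 3.12-fold lower (adjusted p = 0.238), which was not called. With only the treated and untreated diabetic arrays in the fit, the adjusted p was 0.0141 and the probe set was called. It was the only member called in that fit, which called 11 probe sets in all, against 30 with every array. The log2 SD of this probe set was 0.25 in treated and 0.32 in untreated diabetic muscle. In the normal groups left out it was 1.48 treated and 1.70 untreated. On AF030163_s_at the signal was 573, 3509, 615, 1109.6 and 669.9 in treated diabetic muscle, against 2397, 5115, 2618, 3525 and 3319.6 in untreated diabetic muscle, where replicate 2 of the treated rats lay inside the untreated range. That difference was -1.71 ± 0.84 (adjusted p = 0.321).

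Ucp3, like Pdk4, spread widely in normal muscle. On AF035943_at it was 315, 4354, 2799, 1249 and 2857 in treated normal muscle, against 1269.9, 10961, 1757, 16135 and 11170.0 in untreated normal muscle. The untreated replicates 1 and 3 were again the dim ones, the other three lay above every treated value, and the difference was -1.65 ± 0.66 (adjusted p = 0.493). On AF030163_s_at it was 257, 3214, 2657, 1221 and 2389 in treated normal muscle, against 383, 12366, 960.5, 11930.4 and 7099 in untreated normal muscle, a difference of -1.17 ± 0.84 (adjusted p = 0.662). Dropping the 3 arrays of high Gapdh ratio moved these normal-rat differences to -2.87 and -2.78 (adjusted p = 0.0553 and 0.121). The AF035943_at interaction was 0.01 with every array (95% interval -1.95 to 1.97, adjusted p = 0.998), 1.25 with those 3 dropped (adjusted p = 0.570) and -0.58 to 0.53 with single arrays left out. Diabetic muscle differed from normal by 0.37 ± 0.66 on AF035943_at (adjusted p = 0.817) and by -0.02 ± 0.84 on AF030163_s_at (adjusted p = 0.992), and with the 3 arrays of high Gapdh ratio dropped by -0.85 and -1.63 (adjusted p = 0.378 and 0.145). Treated diabetic muscle differed from normal by -2.47 and -3.15 in that fit (adjusted p = 0.0310 and 0.0300), against -1.27 and -1.73 with every array (adjusted p = 0.424 and 0.398).

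The 2 Ucp3 probe sets ordered the 20 arrays alike (r = 0.91, rho = 0.91, adjusted permutation p = 1.8e-05 and 4.5e-05, r = 0.88 without the 2 farthest arrays). Pdk4 was dim in 5 arrays, so its relation with Ucp3 AF035943_at is given over the 15 arrays where it lay above the 40th percentile. There r was 0.71 and rho 0.74 (adjusted permutation p = 0.0026 and 0.0031), and r was 0.71 without the 2 farthest arrays. It was 0.51 after each group's mean over all its 5 arrays, dim ones included, was taken out. Those are not the means of the arrays kept, so part of the group differences stays in. The relation within groups was not tested. In the 5 dim arrays Ucp3 lay between 1269.9 and 2110.1. Slow fibre markers lay lower with treatment as well. In treated against untreated diabetic muscle all 7 had negative differences and 1 fell (median -1.36), and their summed signal was 56483 to 484176 (median 102854) in treated diabetic muscle, against 143138 to 412126 (median 355692) in untreated diabetic muscle. In treated against untreated normal muscle 6 of 7 were negative and none was called (median -0.93), with sums of 85707 to 269753 (median 117788) in treated normal muscle, against 185875 to 388914 (median 257427) in untreated normal muscle. Their part in the Pdk4 and Ucp3 differences was not tested.

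**Figure D3:**
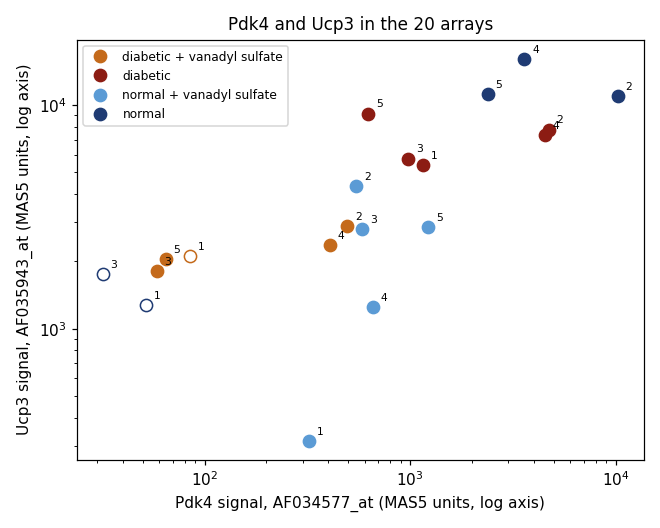
Pdk4 signal against Ucp3 signal in the 20 arrays, both on log axes, coloured by group and numbered by replicate, with open points for the 3 arrays of high Gapdh ratio. The 5 arrays at the left, where Pdk4 lies between 32 and 85, hold treated diabetic replicates 1, 3 and 5 and normal replicates 1 and 3. The diabetic arrays lie above all the treated diabetic arrays on both axes.

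The start regions of Pdk4 and Ucp3 are printed because these are the members that were lower in treated than in untreated diabetic muscle without overlap. They are again RefSeq GRCr8 sequences read 5' to 3' on the gene's strand with AGGTCA in capitals. The Pdk4 region is chr4:34568280-34568579, minus strand, and the Ucp3 region is chr1:164227660-164227959, plus strand.
Pdk4: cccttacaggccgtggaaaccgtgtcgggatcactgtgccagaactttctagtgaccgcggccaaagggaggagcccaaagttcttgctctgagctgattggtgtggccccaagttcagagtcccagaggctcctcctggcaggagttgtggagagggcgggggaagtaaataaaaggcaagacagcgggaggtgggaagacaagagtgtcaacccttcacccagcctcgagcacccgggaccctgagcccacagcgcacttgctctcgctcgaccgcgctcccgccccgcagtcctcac
Ucp3: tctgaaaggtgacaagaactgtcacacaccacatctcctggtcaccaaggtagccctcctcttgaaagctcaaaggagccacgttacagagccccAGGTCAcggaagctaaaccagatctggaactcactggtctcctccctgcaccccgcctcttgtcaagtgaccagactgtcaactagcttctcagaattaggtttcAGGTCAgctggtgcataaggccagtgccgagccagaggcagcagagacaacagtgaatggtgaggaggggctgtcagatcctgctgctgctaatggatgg
Ucp3 has AGGTCA at 155 and at 50 bases before the start, and the Pdk4 window holds no such match. The Pdk4 window has 61.3% G and C and 16 CpG pairs, and the Ucp3 window 54.0% and 4, against a median of 51.7% G and C over all promoters.

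Ucp2, the broadly made uncoupling protein, gave different readings on its 2 probe sets. Ucp2 and Ucp3 are next to each other among protein-coding genes on chromosome 1 in the RefSeq annotation. On AB010743_at the signal was 10673, 5236, 10374, 7869 and 6913 in diabetic muscle, against 4922 to 7979 in normal muscle. The difference was 0.37 ± 0.27 (adjusted p = 0.511), and 0.10 without diabetic replicates 1 and 3. These 2 arrays, where the immune marker sum was highest (105758 and 99979), stood above every untreated normal array. The highest signal of the 20 arrays was 10767 in treated normal replicate 3, where the immune sum was 22948.5. In treated diabetic replicate 3 the signal was 9121 and the immune sum 24026. The part of immune cells in the Ucp2 signal was not tested. On AB005143_s_at it ran from 524 to 1295 in diabetic muscle, against 363 to 1189 in normal muscle, a difference of -0.14 ± 0.38 (adjusted p = 0.891). The 2 probe sets did not follow each other over the 20 arrays (r = -0.13, rho = -0.23, adjusted permutation p = 0.578 and 0.325, r = -0.27 without the 2 farthest arrays), so no direction is given for the gene. Treatment differences were -0.28 and 0.31 in diabetic rats and 0.25 and 0.42 in normal rats on AB010743_at and AB005143_s_at, with adjusted p between 0.625 and 0.795.

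**Figure D4:**
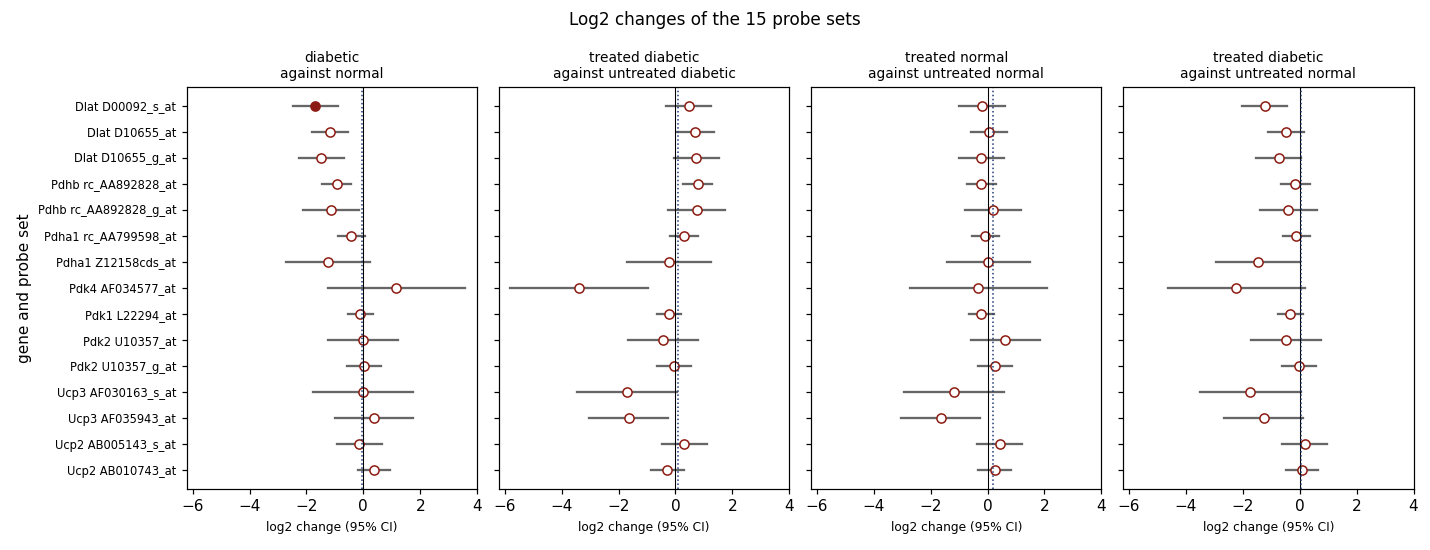
Log2 difference of each of the 15 probe sets with its 95% confidence interval (limma, n = 5 arrays per group), from top to bottom subunits, kinases and uncoupling proteins, in 4 comparisons that share arrays. A filled point has an adjusted p under 0.05, and the dotted line is the median of all probe sets tested. The 7 subunit points lie left of 0 in diabetic against normal muscle, with Dlat D00092_s_at the only filled point, and Pdk4 has the longest intervals.

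Genes that work with the complex were read from pathway lists, with the probe set of highest mean signal for each gene. In diabetic against normal muscle 1.26% of all tested probe sets were called higher and 0.564% lower, and the median difference was -0.06. The list calls come from the fit to all 20 arrays. Without diabetic replicates 1 and 3 only 3 of all probe sets were called. Of 4 partners tested, Pdhx, the subunit that binds the dihydrolipoamide dehydrogenase to the core, fell 2.54-fold in diabetic muscle (-1.34 ± 0.29, adjusted p = 0.0208), and the list's median was -0.57. Mpc1, a subunit of the carrier that brings pyruvate into mitochondria, had -0.54 and Pdp1, a phosphatase that reactivates the enzyme, -0.60, and neither was called. Of 4 genes of the sister 2-oxo acid dehydrogenases none was called (median -0.21), Bckdhb of branched-chain keto acid breakdown having -0.68 (adjusted p = 0.162) and Dlst of the citrate cycle -0.33. Treated against untreated diabetic muscle gave 0.49 for Pdhx and 0.97 for Mpc1 (adjusted p = 0.396 and 0.122).

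Of 10 genes of pyruvate and lactate supply, 1 fell in diabetic muscle and none rose, with a median of -0.40. It was Slc2a4, the insulin-responsive glucose transporter (-1.16 ± 0.29, adjusted p = 0.0450), while the lactate exporter Slc16a3 had -1.21 (adjusted p = 0.109) and the transaminase Gpt -1.62 (adjusted p = 0.141). Of 6 citrate cycle genes, all 6 differences were negative (median -0.70) and Mdh2, mitochondrial malate dehydrogenase, was called (-1.22 ± 0.26, adjusted p = 0.0197). Sdha, a succinate dehydrogenase subunit, had -0.73 and Suclg1, a succinyl-CoA ligase subunit, -0.67 (adjusted p = 0.138 and 0.140).

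Of 19 genes of fatty acid oxidation and PPAR targets, 3 rose in diabetic muscle and none fell, with a median of 0.33. They were Cpt1a, which loads fatty acids for import into mitochondria (1.79 ± 0.36, adjusted p = 0.0143), Decr1, which handles unsaturated fatty acids (1.53 ± 0.31, adjusted p = 0.0148), and Plin2, which coats lipid droplets (1.28 ± 0.30, adjusted p = 0.0348). In treated against untreated diabetic muscle these 3 had -1.28, -1.31 and -1.21 (adjusted p = 0.117, 0.0650 and 0.0816), and the list's median was -0.64. The adipocyte marker sum was also higher in diabetic muscle, and its part in these values was not tested. Among 7 inner membrane carriers none was called, with -0.77 for the phosphate carrier Slc25a3 (adjusted p = 0.0732) and -0.46 for Slc25a11. Among 9 nuclear regulators none was called, with -1.01 for the retinoid receptor Rxrg (adjusted p = 0.0996) and -0.47 for Esrra, the estrogen-related receptor (adjusted p = 0.222). In treated against untreated diabetic muscle no gene of any of the 7 lists was called.

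The probe sets most like each member were ranked by Pearson's r of log2 values over the 20 arrays, which share groups, RNA quality and tissue mix. Pdk4 was closest to Txnip, a glucose-responsive arrestin (r = 0.93), Mxi1 (0.89) and Nrbp1 (0.86), and over the 15 arrays where Pdk4 was not dim these were 0.82, 0.73 and 0.63. Ucp3 was closest to Rbpj (0.83), Fcgrt (0.82) and Mgll, a lipase (0.80). Dlat was closest to Homer1 (0.88), the fatty acid ligase Acsl6 (0.86) and the mitochondrial elongation factor Tufm (0.84), and Pdhb to Alas1 of heme synthesis (0.87), the aspartate transaminase Got1 (0.86) and also Acsl6 (0.83). Pdha1 was closest to Anapc16 (0.84), Plcd4 (0.84) and Fam210a (0.81). Pdk2 was closest to Sh2b1 (0.87), Gnai2 (0.85) and Tpsb2 (0.85), and Pdk1 to Fn1 (0.78), Plpp3 (0.69) and Cd151 (0.67). Ucp2 was closest to Runx1 (0.76), Tkt (0.76) and the class II antigen gene RT1-Ba (0.71).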

How the data were processed

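RNA from rear-leg muscle was measured on 20 one-colour Affymetrix arrays, 1 per sample, in 4 groups of 5 taken from the sample titles. The deposited table gives 1 linear signal intensity for each probe set and array, and per the submitters' processing notes the authors used MAS5, whose version and scaling target the sources used here do not give. With 2% trimmed from each end, the mean was 2499.6 in each array, so the deposited scaling was kept. No per-sample column was left unused (0).

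Of 8799 probe sets, 59 controls were left out, and 6027 that exceeded the 40th percentile of an array in 5 or more of the 20 arrays were tested. Group means of log2(signal + 16) were fitted to all 20 arrays by lmFit and eBayes of limma 3.58.1 in R 4.3.3, two-sided, and p-values were adjusted by Benjamini-Hochberg over the 6027. Correlations used permutation tests (Python 3.11.15, numpy 2.4.6). The fit was tested on simulated data with independent noise and, for each probe set, the same spread in every group. That test therefore does not cover shared differences in RNA quality or groups of unequal spread. The number of arrays limits the precision.

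The platform annotation gave 7018 probe sets 1 symbol, 308 several and 1473 none, and 6994 symbols were found again by gene identifier with 0 changed. Named were all member probe sets, from each pathway list the called genes and up to 2 others of smallest p, and the 3 probe sets most like each member. The members, lists and tests were chosen with earlier results of these data known. The alternatives tried were a larger pseudocount, no filter or a stricter one, quantile normalization, only the groups compared, an intensity trend with robust spread, array weights, a replicate block, RNA quality covariates, and leaving out arrays.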

Additional observations from a re-analysis of the deposited data

Results flagged for a closer look

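In 5 of the 60 groups of 5 arrays examined, 1 array lay far from the other four by Dixon's test, which chance alone does in about 1 in 20 groups. Pdha1 on Z12158cds_at read 5782.1 in treated diabetic replicate 2, above the others. Dlat read 1933.0 on D00092_s_at and 14846.5 on D10655_at in normal replicate 3, below the others, and this array has a log2 Gapdh 3' to 5' ratio of 2.91. Ucp2 on AB005143_s_at read 366.5 in treated diabetic replicate 3 and 363.3 in normal replicate 1, both below the others, while the other Ucp2 probe set was 9121 and 5004 there. What sets these arrays apart was not tested.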

How the results depend on the processing

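Of 2385 member values recomputed under the alternatives, 2332 kept their side of the threshold, 7 lost and 46 gained a call, and 0 called values turned sign, while 124 uncalled ones did. Only 1 member result was called in the main fit, Dlat D00092_s_at between diabetic and normal muscle, so all 7 losses were of that call. It was lost in 5 of the 20 fits that left out a single array. Members called between diabetic and normal muscle numbered 1, against 4 with a larger pseudocount, the stricter filter, quantile normalization, an intensity trend or array weights, 5 with the Gapdh covariate, 2 with both covariates, 6 without the arrays of high Gapdh ratio, 0 with only the groups compared or without diabetic replicates 1 and 3, and 0 to 5 when single arrays were left out. Between treated and untreated diabetic muscle 0 became 1 with only the groups compared (11 in all). Between treated diabetic and normal muscle 0 became 5 without the arrays of high ratio (359 in all).

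Over all probe sets, 110 were called between diabetic and normal muscle, against 62 with no filter, 71 with only the groups compared, 515 with array weights, 282 with the Gapdh covariate, 32 with both, 464 without the arrays of high ratio, 3 without diabetic replicates 1 and 3, and 24 to 247 leaving out single arrays. The larger pseudocount gave 140 there, the stricter filter 127 of 4396 tested, quantile normalization 100 and the intensity trend 133. Treated against untreated diabetic muscle gave 30, against 19 with no filter, 11 with only the groups compared, 112 with array weights, 1 without diabetic replicates 1 and 3, and 10 to 59 leaving out single arrays. Treated against untreated normal muscle gave 4, against 0 with no filter, quantile normalization or only the groups compared, 19 with array weights, 2 without the arrays of high ratio, 1 without diabetic replicates 1 and 3, and 0 to 6 leaving out single arrays. Treated diabetic against normal muscle gave 0, against 1 with array weights, 359 without the arrays of high ratio and 0 to 3 leaving out single arrays. The interaction gave 10, against 1 with no filter, quantile normalization, both covariates, without the arrays of high ratio or without diabetic replicates 1 and 3, 40 with array weights, 3 with the Gapdh covariate and 1 to 22 leaving out single arrays; it was not run with only the groups compared. The causes were not tested.

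With the replicate number as a block, 2 members were called between diabetic and normal muscle, of 106 probe sets called in all. In that fit 0 probe sets were called between treated and untreated normal muscle and 6 in the interaction. Over 30 pairs of samples of the same number, the correlation of deviations ran from -0.28 to 0.62 and was over 0.1 in 11. Pairs of different numbers were not computed, so these values cannot show whether samples of the same number pair. With 5 arrays a group and spreads as wide as those of Pdk4 and Ucp3 in normal muscle, differences of several-fold could not be told from none.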
